A study of Mus musculus with 12 samples.

Results

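The urea cycle and amino acid catabolism genes are 10 genes of the liver that were read out of the expression table by their gene names, *Cps1*, *Otc*, *Ass1*, *Asl*, *Arg1*, *Nags*, *Tat*, *Hal*, *Sds* and *Gls2*. Each name was found on 1 row of the 54532 genes measured, and all 10 were expressed in every mouse. RNA-seq was performed on whole liver from 12 male C57BL/6J mice, with 3 mice in each of 4 diet groups. Mice entered the study at 5 weeks of age and were fed for 26 weeks. ND-fed mice received a normal diet, control mice received a high-fat diet with no added fatty acid, HYA-treated mice received the same high-fat diet with 1% 10-hydroxy-cis-12-octadecenoic acid (HYA), and LA-treated mice received it with 1% linoleic acid (LA). HYA is the hydroxy fatty acid that gut bacteria make from LA by hydrating a double bond, so the LA group serves as the comparison with the unmodified parent fatty acid. No group carried a transgene or deleted allele, and control, HYA-treated and LA-treated mice shared the high-fat diet, so a comparison of control with ND covers the whole change of diet. Levels are given as FPKM, a count of sequenced fragments divided by gene length and by a scaling factor of each library. This allows levels of different genes to be set side by side.

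The urea cycle turns the ammonia released from amino acids into urea, and in mammals the complete cycle runs in hepatocytes, mainly those around the portal vein. Ammonia enters in mitochondria as carbamoyl phosphate, made by the *Cps1* product only in the presence of N-acetylglutamate, which the *Nags* product supplies, and the *Otc* product then joins carbamoyl phosphate to ornithine. The *Ass1*, *Asl* and *Arg1* products complete the cycle in the cytosol by way of argininosuccinate and arginine, while the *Tat*, *Hal*, *Sds* and *Gls2* products release nitrogen from tyrosine, histidine, serine and glutamine. Expression of these genes in liver is known to follow protein intake, glucocorticoids, glucagon and insulin.

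In the GRCm38 build of the mouse genome used for the table, *Cps1* (ENSMUSG00000025991) lies on chromosome 1 at 67123026 to 67231259 and *Otc* (ENSMUSG00000031173) on chromosome X at 10252305 to 10321024. *Ass1* (ENSMUSG00000076441) lies on chromosome 2 at 31470207 to 31520672 and *Asl* (ENSMUSG00000025533) on chromosome 5 at 130011258 to 130029247. *Arg1* (ENSMUSG00000019987) lies on chromosome 10 at 24915221 to 24927484 and *Nags* (ENSMUSG00000048217) on chromosome 11 at 102145513 to 102149477. *Tat* (ENSMUSG00000001670) lies on chromosome 8 at 109990437 to 109999803, and *Sds* (ENSMUSG00000029597) on chromosome 5 at 120476526 to 120483932. *Hal* (ENSMUSG00000020017) and *Gls2* (ENSMUSG00000044005) share chromosome 10 with *Arg1*, at 93488768 to 93519304 and 128194457 to 128210004. These are spans of whole protein-coding genes, and each level sums the fragments over all exons of the gene. *Nags*, *Sds* and *Gls2* overlap genes on the opposite strand, *Gm11586* with a mean of 4.90 FPKM, *Plbd2* with 11.1 FPKM and *Spryd4* with 14.7 FPKM, and the sources used here do not say whether counting used strand.

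The 250 bases before the annotated start are shown for *Hal* and *Tat*, the catabolic genes with the largest diet difference and with the largest spread between mice of a group. Both are RefSeq sequences on GRCm38.p6, plus strand, read 5′ to 3′, from chr10:93488518-93488767 and chr8:109990186-109990435. Capitals mark exact matches, on either strand, to letter patterns of regulators known from liver gene promoters.
Hal: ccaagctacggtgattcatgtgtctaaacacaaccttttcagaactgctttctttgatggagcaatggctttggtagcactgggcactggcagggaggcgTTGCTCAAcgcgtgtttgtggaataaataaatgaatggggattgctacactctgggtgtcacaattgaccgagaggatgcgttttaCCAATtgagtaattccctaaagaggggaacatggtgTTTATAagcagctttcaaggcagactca
Tat: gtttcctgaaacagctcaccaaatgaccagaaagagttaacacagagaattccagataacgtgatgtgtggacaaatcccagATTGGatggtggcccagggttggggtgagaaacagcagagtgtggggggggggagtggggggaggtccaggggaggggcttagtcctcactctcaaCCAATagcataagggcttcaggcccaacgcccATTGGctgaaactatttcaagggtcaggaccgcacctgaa
In *Hal* the capitals mark a match to TTGCNNAA, the pattern bound by C/EBP factors, which starts 150 bases before the gene's start, a CCAAT box on the plus strand at 64 bases and a TATAAA box read on the minus strand at 28 bases. In *Tat* they mark 3 CCAAT boxes at 168, 72 and 40 bases before the start. Of 32851 promoter windows of the same length, 9.56% held TTGCNNAA, 33.8% CCAAT and 12.4% TATAAA. The patterns TGTTCT, the half-site of the glucocorticoid receptor, TGACG, of CREB, and CAAAGTNCA, of HNF4A, were searched as well and stood in 16.1%, 17.8% and 1.19% of windows, and the HNF1 palindrome in 0.00913%. RefSeq windows were at hand for 5 of the 10 genes, and those of *Otc*, *Ass1* and *Nags* held none of the patterns searched. A match describes letters and not a bound site.

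*Ass1* had the highest mean level over the 12 mice, 868 FPKM, and ranked 54 among the 54532 genes. *Cps1* followed with 523 FPKM, *Arg1* with 449 FPKM and *Tat* with 431 FPKM, all within the first 102 ranks. *Gls2*, *Otc*, *Sds* and *Asl* had means of 99.2, 92.8, 90.6 and 70.1 FPKM, *Hal* of 55.1 FPKM, and *Nags* was the lowest with 25.3 FPKM at rank 1644. The order of neighbours depended on the diet. In ND-fed mice *Ass1* exceeded *Cps1* in every mouse, at 1152 ± 24.5 and 954 ± 57.2 FPKM (mean ± SD, n = 3), whereas *Otc* and *Gls2* at 121 ± 10.2 and 123 ± 2.95 FPKM lay within their spread. In control mice the ranges of *Cps1*, *Arg1* and *Tat* overlapped, at 351 ± 83.9, 437 ± 49.9 and 389 ± 187 FPKM. *Arg1* exceeded *Cps1* in each control mouse, whereas *Tat* was below both in mice 1 and 3 and above both in mouse 2.

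**Figure D1:**
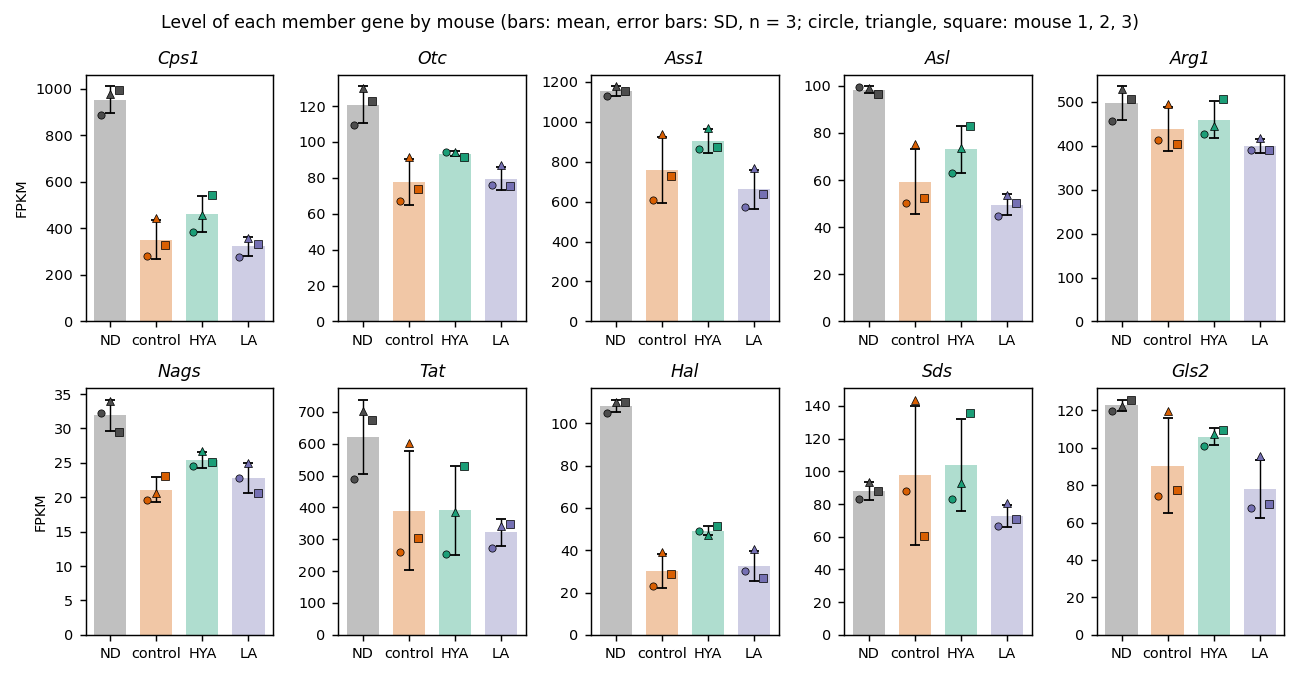
Level of the 10 genes in FPKM (y axis, from 0) by diet group (x axis), with bars for the mean, error bars for the SD of 3 mice, and a circle, triangle and square for mouse 1, 2 and 3. The ND bar is the tallest for every gene except *Sds*, and the triangle of the control group is its highest point for every gene except *Nags*.

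The livers of control mice held less mRNA of the ammonia-fixing and histidine-degrading enzymes than those of ND-fed mice. *Hal*, which encodes the first enzyme of histidine breakdown, fell from 108 ± 2.91 to 30.2 ± 8.14 FPKM, a 3.59-fold lower mean. *Cps1*, the entry enzyme of the cycle, fell from 954 to 351 FPKM, a 2.71-fold lower mean. *Asl*, *Otc*, *Ass1* and *Nags* fell as well, and the means of these 4 genes were 1.51- to 1.66-fold lower. The last enzyme of the cycle, *Arg1*, and the catabolic genes *Tat*, *Sds* and *Gls2* did not pass the test. Differences were fitted with limma on log2(FPKM + 1), a fold change understated for low genes, over the 11083 genes whose mean reached 1 FPKM, and a gene passed at a Benjamini-Hochberg adjusted p under 0.05 over all of them.

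*Cps1* was measured at 889, 980.0 and 994 FPKM in ND-fed mice 1, 2 and 3 and at 283, 445 and 327 FPKM in control mice. Every control mouse lay below every ND-fed mouse, and the log2 fold change was -1.46 (SE 0.17, adjusted p = 0.000101). *Hal* was at 105, 110.0 and 110.1 FPKM in ND-fed mice and at 22.9, 39.0 and 28.8 FPKM in control mice, with a log2 fold change of -1.84 (SE 0.17, adjusted p = 2.98e-05). The gap for *Hal* between the lowest ND-fed and the highest control mouse was wider, relative to the levels, than for any other of the 10 genes.

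*Otc* was at 109.7, 129.8 and 123 FPKM in ND-fed mice against 67.2, 91.8 and 74.1 FPKM in control mice (log2 fold change -0.64, SE 0.11, adjusted p = 0.00102). *Nags* was at 32.3, 34.0 and 29.4 FPKM against 19.5, 20.7 and 23.1 FPKM (-0.58, SE 0.08, adjusted p = 0.000471). Neither pair of ranges overlapped, and *Nags*, the lowest-expressed gene, had the smallest standard error of the 10. *Ass1*, which makes argininosuccinate, was at 1128, 1177 and 1152 FPKM in ND-fed mice and at 609.6, 938 and 726 FPKM in control mice (-0.63, SE 0.14, adjusted p = 0.00675). *Asl*, which splits argininosuccinate into arginine and fumarate, was at 99.4, 99.0 and 96.6 FPKM in ND-fed mice and at 50.3, 75.2 and 52.5 FPKM in control mice (-0.74, SE 0.14, adjusted p = 0.00246). For both genes control mouse 2 was the control mouse nearest to the ND range.

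*Arg1* was at 456, 529.8 and 508 FPKM in ND-fed mice and at 413, 495 and 405 FPKM in control mice, so its ranges overlapped (log2 fold change -0.19, SE 0.09, adjusted p = 0.142). *Gls2*, the liver glutaminase, was at 119.8, 123 and 126 FPKM in ND-fed mice and at 74.2, 119.6 and 77.3 FPKM in control mice (-0.47, SE 0.17, adjusted p = 0.0517). Control mice 1 and 3 were far below the ND range and control mouse 2 stood just under it. *Tat*, the first enzyme of tyrosine breakdown, was at 488, 702 and 676 FPKM in ND-fed mice and at 260.0, 603 and 304 FPKM in control mice (-0.76, SE 0.32, adjusted p = 0.0901). *Sds*, which deaminates serine, was at 82.8, 93.6 and 87.9 FPKM in ND-fed mice and at 88.2, 144 and 60.7 FPKM in control mice (0.06, SE 0.26, adjusted p = 0.883). In both, control mouse 2 exceeded at least 1 ND-fed mouse, and the control mice of *Sds* spanned the whole ND range.

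Thus 6 of the 10 genes fell and 0 rose, where 19.1% of the 11083 tested genes passed in the lower direction and 16.2% in the higher. The ranges lay apart with control lower for 7 genes, against 25.7% of all tested genes. *Hal* and *Cps1* were the 2 with an absolute log2 fold change above 1, where 3.88% of all tested genes passed with such a change. The median log2 fold change was -0.63 for the 10 genes and -0.04 for all tested genes. The same 6 genes passed when values were rescaled to TPM, which moved the median of all genes to 0.18 and that of the 10 genes to -0.40, 0.58 below the median of all. Under that scaling *Arg1* turned to 0.05, and the split of all calls moved from 1795 higher and 2115 lower to 4417 higher and 775 lower. Without control mouse 2, *Arg1* (-0.28, adjusted p = 0.0333), *Tat* (-1.12, adjusted p = 0.0107) and *Gls2* (-0.69, adjusted p = 0.00237) passed too, for 9 of 10, and *Sds* was at -0.26. *Gls2* also passed without LA mouse 2 (adjusted p = 0.0344).

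**Figure D2:**
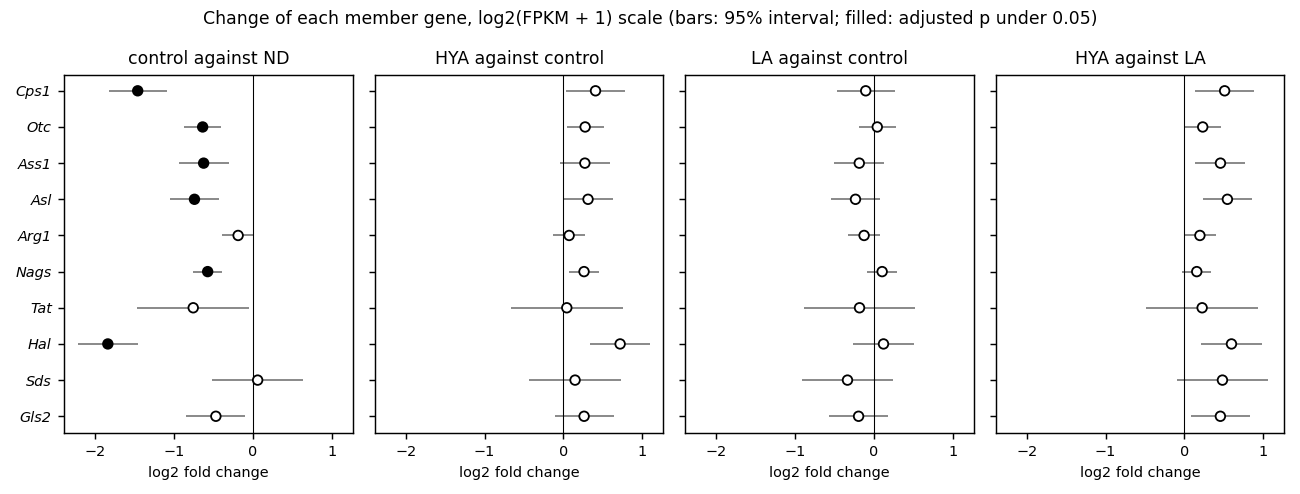
Log2 fold change (x axis, log2(FPKM + 1) scale) of the 10 genes (rows) in 4 comparisons, with 95% intervals from limma and filled points for adjusted p under 0.05. Filled points stand only in control against ND, from -0.58 to -1.84, and all 10 points of HYA against control and of HYA against LA lie to the right of 0.

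Whole liver holds several cell types, and in bulk tissue fewer hepatocytes and less RNA of a gene per hepatocyte cannot be told apart. General hepatocyte markers, summed over 8 genes, were at 41491 to 43094 FPKM in ND-fed, 28481 to 32168 in control, 36405 to 37317 in HYA-treated and 31194 to 31872 in LA-treated mice. Of these 8, 6 fell in control mice and 0 rose, with a median log2 fold change of -0.44. The 8 stellate cell markers summed to 34.0 to 44.5 FPKM in ND-fed and 72.7 to 94.9 FPKM in control mice, 5 of them rose, and the collagen genes *Col1a1* and *Col3a1* rose by 2.55 and 2.25 on the log2 scale. Of 8 macrophage markers 4 rose and 1 fell, summing to 209.8 to 326 FPKM in ND-fed and 328 to 347 FPKM in control mice. Endothelial markers (2 of 6 tested rose, 49.0 to 60.1 against 68.3 to 69.5 FPKM) followed, while bile duct markers (1 of 2 rose, sum of 4 at most 6.30 FPKM) and lymphocyte and neutrophil markers (1 of 2 rose, sum of 6 at most 8.66 FPKM) were near 0. The bile duct markers *Krt7* and *Krt19*, the lymphocyte markers *Cd3e* and *Cd79a* and the neutrophil markers *S100a8* and *Ly6g* were below the 1 FPKM filter. All marker sums are on the FPKM scale, whose totals over all genes were also highest in ND-fed mice, and they were not rescaled. The part of these cell types in the lower member levels was not tested.

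The urea cycle genes are markers of periportal hepatocytes, and other markers of that zone moved both ways in control against ND, on the FPKM and the TPM scale. Of 10 such genes 4 fell, among them *Cyp2f2* (-0.96, adjusted p = 9.82e-05) and *Pigr* (-0.99, adjusted p = 5.21e-05), and 3 rose, among them *Hsd17b13* (0.82, adjusted p = 7.38e-06) and *Aldh1b1* (0.90, adjusted p = 0.000101). Of 12 pericentral markers 4 fell, including *Cyp2e1* (-0.84, adjusted p = 0.00385), and 1 rose, *Glul*, the glutamine synthetase that takes up ammonia by the central vein (0.46, adjusted p = 0.00813). Summed periportal markers overlapped between the groups, at 2412 to 2915 FPKM in ND-fed and 2014 to 2451 FPKM in control mice, whereas pericentral markers did not, at 5099 to 5515 and 2926 to 4148 FPKM. Such sums weigh the highest genes most, and the median log2 fold changes of the periportal and pericentral lists were close, at -0.18 and -0.19.

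The wider set of amino acid genes held 99 further genes, of which 91 were tested, and 55 of them fell in control mice while 4 rose. Their median log2 fold change was -0.39, and 64.8% passed in either direction against 35.3% of all tested genes. On the TPM scale 37 fell and 15 rose, where 775 of 13588 tested genes fell and 4417 rose. Their median there was -0.14, which was 0.32 below that of all genes. The TPM fit also tested genes that were below the main filter, so list counts on that scale can cover more genes. The 8 genes below the main filter included *Arg2*, a relative of *Arg1* expressed mainly in other tissues, at a mean of 0.16 FPKM.

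All 4 tested genes of histidine and folate-linked catabolism fell, among them *Amdhd1* (-0.98) and *Aldh1l1* (-1.02), which act downstream of *Hal*. For phenylalanine and tyrosine, 5 of 7 genes fell, including *Hpd* (-0.95) and *Fah* (-0.46), which act after *Tat*. For serine, glycine and threonine, 7 of 12 fell, including *Gnmt* (-1.48), *Sardh* (-0.80) and *Dmgdh* (-0.69) of methyl group and glycine metabolism, while *Sdsl*, the close relative of *Sds*, was at -0.25 and did not pass. In methionine and cysteine metabolism 6 of 9 fell, including *Csad* (-1.76) of taurine synthesis, *Cth* (-1.38) and *Ahcy* (-0.96). On the TPM scale 4, 3, 4 and 6 genes of these 4 lists fell and 1 gene of each rose.

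In tryptophan catabolism 8 of 10 genes fell, with *Afmid* (-1.40) and *Kyat1* (-1.32) of the kynurenine route lowest. In branched-chain amino acid catabolism 12 of 20 fell, including *Acadsb* (-0.96) and *Ivd* (-0.80). In lysine, proline and ornithine catabolism 9 of 10 fell, including *Pipox* (-0.85) and *Aldh7a1* (-0.55). None of these 3 lists held a gene that rose, but on the TPM scale 1 rose and 6 fell for tryptophan, 3 rose and 6 fell for branched-chain amino acids, and 0 rose and 6 fell for lysine, proline and ornithine. The exception was the handling of glutamine, glutamate, alanine and aspartate, where 4 of 14 genes rose and 3 fell (7 and 2 on the TPM scale). The alanine aminotransferases moved apart, *Gpt2* rising from 78.9 to 143 FPKM (0.85, adjusted p = 5.65e-05) and *Gpt* falling (-0.65), and *Glud1*, glutamate dehydrogenase, fell (-0.35).

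Of 5 tested genes for urea cycle transport and bicarbonate supply, *Slc25a15*, the mitochondrial ornithine carrier, fell (-0.39), a call that was lost on the TPM scale (-0.16), as was that of *Glud1* (-0.12), which was also lost without control mouse 1 (adjusted p = 0.0509). Among 14 regulators of amino acid catabolism genes 5 fell and 1 rose, against 2 and 2 on the TPM scale. *Hnf4a*, a hepatocyte transcription factor, fell by 0.54, *Nr3c1*, the glucocorticoid receptor, by 0.42, and *Crtc2*, a coactivator of CREB, by 0.37 on the log2 scale, the last with an adjusted p of 0.0933 on the TPM scale. *Klf15*, a factor known to drive amino acid catabolism genes, was at 65.7 FPKM in ND-fed and 45.3 FPKM in control mice and did not pass (-0.57, adjusted p = 0.101).

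**Figure D3:**
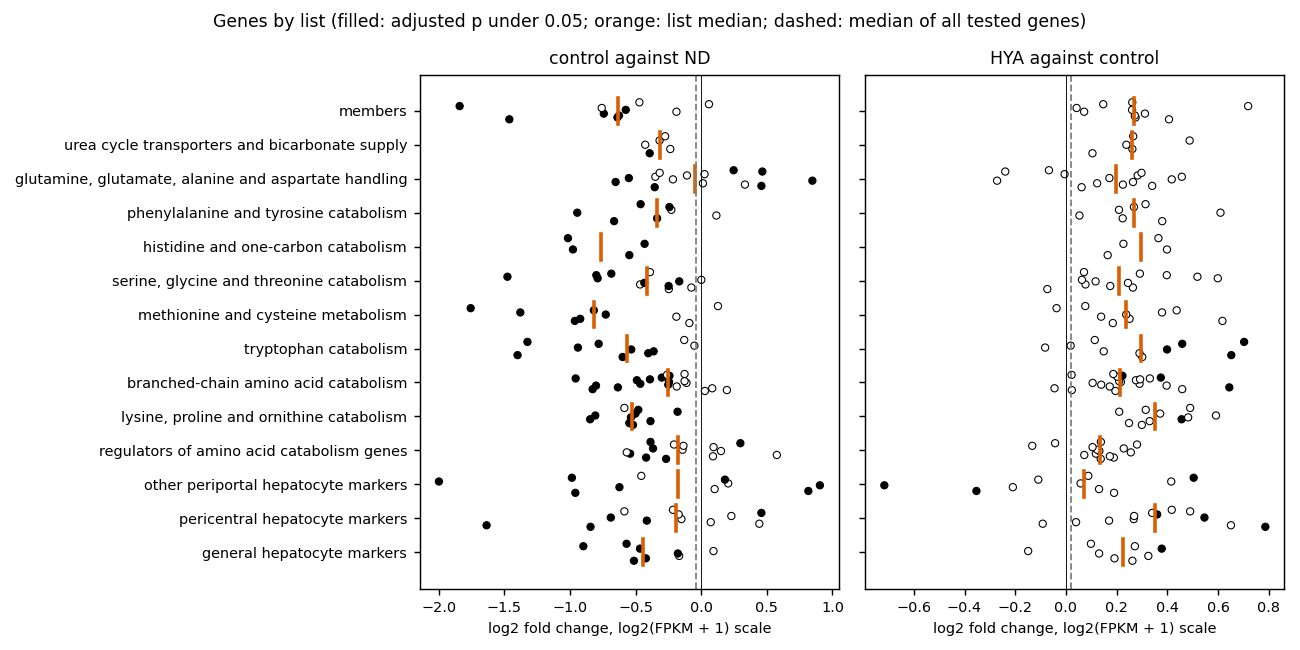
Log2 fold change (x axis) of each tested gene by list (rows) in control against ND and in HYA against control, with filled points for adjusted p under 0.05, orange bars for list medians and dashed lines for the median of all tested genes, -0.04 and 0.02. Most filled points of the amino acid lists lie left of 0 in control against ND, apart from the glutamine and glutamate list with 4 filled points to the right, and 8 filled points of these lists lie right of 0 in HYA against control.

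The comparison of HYA-treated with control mice asks whether HYA altered these genes on the high-fat diet. All 10 estimates were higher in HYA-treated mice, from 0.04 for *Tat* to 0.72 for *Hal*, but 0 of the 10 genes passed the test, where 2.8% of all tested genes did. The median was 0.27, against 0.02 for all tested genes. Before adjustment 4 of them, *Cps1*, *Otc*, *Nags* and *Hal*, had a limma p under 0.05, against 18.5% of all tested genes. *Arg1* and *Tat* turned to -0.05 and -0.08 on the TPM scale, where the median of all genes moved to -0.10 and that of the 10 genes to 0.14, 0.25 above it. On that scale the calls among all genes moved from 174 higher and 136 lower to 88 higher and 408 lower.

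*Hal* was at 49.0, 47.2 and 51.5 FPKM in HYA-treated mice, above the 22.9, 39.0 and 28.8 FPKM of control mice in every pair (log2 fold change 0.72, SE 0.17, adjusted p = 0.0548). Its mean was 1.63-fold higher than in control mice and still 2.20-fold lower than in ND-fed mice. *Otc* at 94.2, 94.2 and 91.9 FPKM (0.27, adjusted p = 0.195) and *Nags* at 24.5, 26.7 and 25.1 FPKM (0.26, adjusted p = 0.126) also lay above every control mouse. Such separation upward was seen in 3 of the 10 genes and in 12.7% of all tested genes. *Otc* varied little among HYA-treated mice, with an SD of 1.33 FPKM against 12.7 FPKM among control mice.

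*Cps1* was at 387, 458 and 542 FPKM in HYA-treated mice (0.41, adjusted p = 0.222), and only HYA mice 2 and 3 exceeded the highest control mouse. *Ass1* was at 863, 969.7 and 872 FPKM (0.27, adjusted p = 0.347) and *Asl* at 63.0, 73.6 and 82.8 FPKM (0.31, adjusted p = 0.278). For both, 1 HYA-treated mouse stood above control mouse 2 and the others below it. *Arg1* was at 426, 445 and 507 FPKM (0.07), *Tat* at 254, 387 and 531 FPKM (0.04), *Sds* at 83.2, 93.0 and 136 FPKM (0.15) and *Gls2* at 101, 108 and 109.5 FPKM (0.26). For these 4 genes control mouse 2 was within or above the HYA range.

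Without control mouse 2, 4 of the 10 genes passed against control, *Hal* (0.91, adjusted p = 0.00999), *Cps1* (0.59, adjusted p = 0.0449), *Asl* (0.49, adjusted p = 0.0295) and *Otc* (0.40, adjusted p = 0.0291), where 5.87% of all tested genes passed. Leaving out any other single mouse gave 0 calls. Leaving out HYA mouse 3, control mouse 1 or control mouse 3 turned the estimate of *Tat* below 0, and leaving out HYA mouse 3 or control mouse 3 did so for *Sds*. Without HYA mouse 3 *Arg1* came to -0.0014.

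Set against ND-fed mice, HYA-treated mice had lower levels of 4 genes, *Hal* (-1.12, adjusted p = 0.00159), *Cps1* (-1.06, adjusted p = 0.00181), *Otc* (-0.36, adjusted p = 0.0397) and *Nags* (-0.31, adjusted p = 0.0278), where 7.85% of all tested genes fell. LA-treated mice had lower levels of 9, all but *Sds*, where 16.6% fell. In both comparisons *Hal* and *Cps1* were the 2 with an absolute log2 fold change above 1, as were 1.89% and 3.49% of all tested genes. In HYA against ND the calls of *Hal* and *Cps1* remained in every fit at this threshold, those of *Otc* and *Nags* were lost with TPM, with voom and without the filter, and *Ass1* (adjusted p = 0.0478) and *Asl* (adjusted p = 0.013) passed too without control mouse 2. The call of *Otc* was lost without any single HYA-treated mouse, without ND mouse 2 or 3 or LA mouse 1 or 3, and that of *Nags* without ND mouse 1 or 2 or HYA mouse 1 or 3. In LA against ND, *Arg1* and *Tat* did not pass on the TPM scale (adjusted p = 0.439 and 0.0902), with voom (0.202 and 0.0521) or without the filter (0.0632 and 0.102). By single mice, *Tat* did not pass without ND mouse 2 or 3, control mouse 3, HYA mouse 2 or any single LA-treated mouse, *Arg1* without ND mouse 2 or 3 or LA mouse 1 or 3, and *Gls2* without LA mouse 1. The HYA mean lay between the control and ND means for 9 of the 10 genes and the LA mean for 3. The 9 include *Tat*, whose HYA and control means were 390 and 389 FPKM. The share of all tested genes with such a position was not counted. Both comparisons share the ND-fed mice, and that of HYA with control shares mice with both.

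In the comparison of LA-treated with control mice 0 of the 10 genes passed, as did 0% of all tested genes, and the 294 genes at an unadjusted p under 0.05 held none of the 10. Estimates ran from -0.34 for *Sds* to 0.12 for *Hal*, with 7 below and 3 above 0 and every adjusted p at 0.999. All 10 ranges overlapped. The LA-treated mice were at 278, 359 and 332 FPKM for *Cps1*, with a difference from control of -0.10 (95% interval -0.47 to 0.27). For *Hal* they were at 30.3, 40.7 and 27.0 FPKM, with a difference of 0.12 (95% interval -0.26 to 0.50).

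HYA and LA, a hydroxylated derivative and its parent fatty acid, were given at the same 1% for the same time, so their groups were compared directly. All 10 estimates were higher with HYA than with LA, by 0.16 (*Nags*) to 0.60 (*Hal*), with a median of 0.46 against 0.01 for all tested genes. Of the 10, 0 passed, where 0.487% of all tested genes did, and 5 had an unadjusted limma p under 0.05, as did 17.2% of all tested genes. The lowest adjusted p was that of *Asl* at 0.0931. It was at 44.8, 53.8 and 50.2 FPKM in LA-treated mice, below every HYA-treated mouse (log2 difference 0.55, 95% interval 0.23 to 0.86).

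The ranges of the HYA and LA groups lay apart, with HYA higher, for 8 of the 10 genes, against 14.8% of all tested genes. *Ass1* was at 574, 769 and 637 FPKM in LA-treated mice, all under the HYA minimum of 863 FPKM (0.46, 95% interval 0.14 to 0.77). *Gls2* was at 67.7, 95.8 and 70.2 FPKM in LA-treated mice, all under the HYA minimum of 101 FPKM (0.46, 95% interval 0.08 to 0.83). *Nags* and *Tat* were the 2 whose ranges overlapped, with LA-treated mice at 22.8, 24.9 and 20.6 FPKM and at 274, 343 and 347 FPKM. The intervals of *Nags* (-0.03 to 0.34) and *Tat* (-0.48 to 0.93) included 0. Without control mouse 2, which changes only the shared variance here, *Asl* passed (adjusted p = 0.0264), and without HYA mouse 3 *Tat* was at -0.03.

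Among the 91 other amino acid genes 8 rose in HYA-treated against control mice and 0 fell, or 8.79% against 2.8% of all tested genes. Of the 91 estimates 83 were above 0, with a median of 0.25. Over all tested genes 44.4% of the estimates were below 0 and the median was 0.02. The 8 were *Kyat1* (0.70, adjusted p = 0.0292), *Afmid* (0.65, adjusted p = 0.0386), *Aadat* (0.46, adjusted p = 0.039) and *Haao* (0.40, adjusted p = 0.0296) of tryptophan breakdown, *Ppm1k*, *Hsd17b10* and *Pccb* of branched-chain amino acid breakdown, and *Pipox* (0.46, adjusted p = 0.0293), which oxidises pipecolic acid and sarcosine. *Aadat*, *Haao*, *Hsd17b10* and *Pccb* were picked for naming after their values were seen. The other lists, those of the urea cycle transporters, the glutamine group, phenylalanine and tyrosine, histidine, serine, methionine and the regulators, held 0 calls in either direction. The 8 calls rested on single libraries, with 0 calls without control mouse 1, HYA mouse 2 or HYA mouse 3, 1 without control mouse 3, 2 without HYA mouse 1, 3 without ND mouse 2, LA mouse 2 or LA mouse 3, 5 without LA mouse 1 and 36 without control mouse 2. The share of all tested genes moved as well. It was 0% without HYA mouse 2, 0.253% without control mouse 1, 0.54% without HYA mouse 3 and 5.87% without control mouse 2.

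*Ppm1k*, the phosphatase that activates the branched-chain ketoacid dehydrogenase, was at a mean of 18.0 FPKM in ND-fed, 11.2 FPKM in control, 17.9 FPKM in HYA-treated and 10.3 FPKM in LA-treated mice. It rose in HYA-treated mice both against control (0.64, adjusted p = 0.0386) and against LA-treated mice (0.76, adjusted p = 0.0411), the 1 call among the 91 genes in that comparison. The second call was lost without ND mouse 1 or 2, control mouse 3 or any single HYA-treated or LA-treated mouse (adjusted p up to 0.229). Without HYA mouse 2, LA mouse 1 or LA mouse 2, 0 of all tested genes passed in that comparison. In LA-treated against control mice 0 of the 91 passed.

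Cell type markers in the same comparison of HYA with control moved as follows. *Apoh* was the 1 of 8 general hepatocyte markers that rose, and *Cyp2e1* (0.79, adjusted p = 0.0452), *Rgn* and *Gulo* were the 3 of 12 pericentral markers that rose, against 0 on the TPM scale. Of the other periportal markers, *Pigr* rose (0.50, adjusted p = 0.0348) while *Hsd17b13* (-0.35, adjusted p = 0.0257) and *Aldh1b1* (-0.72, adjusted p = 0.0166) fell. *Col1a1* and *Col3a1*, 2 of 8 stellate markers, and *Epcam*, 1 of 2 bile duct markers, fell, and the macrophage, endothelial and lymphocyte and neutrophil markers held 0 calls. The stellate sum was 59.0 to 72.9 FPKM in HYA-treated, 72.7 to 94.9 FPKM in control and 78.8 to 95.03 FPKM in LA-treated mice. The pericentral sum was 4709 to 5795, 2926 to 4148 and 2793 to 4112 FPKM in the same order. Their part in the HYA values was not tested.

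The 10 genes varied together among mice of the same diet. Control mouse 2 was the highest control mouse for 9 of the 10 genes, whereas it was highest for 35.3% of all tested genes. LA mouse 2 was the highest of its group for 9 as well (30.6% of all tested genes) and HYA mouse 3 for 7 (37.2%). Mouse 1 was the lowest of its group for 8 genes in ND-fed, control and HYA-treated mice and for 7 in LA-treated mice. In the same order, mouse 1 was the lowest for 35.4%, 33.6%, 37.4% and 35.3% of all tested genes. *Nags* was the gene in which control mouse 2 was not highest, and *Tat* that in which LA mouse 2 was not.

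Values of some other genes stood apart in control mouse 2 as well. Its pericentral marker sum was 4148 FPKM against 2926 and 3313 FPKM in the other control mice, its stellate sum 72.7 against 94.9 and 93.1 FPKM, and its bile duct sum 3.72 against 5.77 and 6.30 FPKM. The periportal sum was 2451 against 2014 and 2036 FPKM, and the lymphocyte and neutrophil sum 4.10 against 6.29 and 8.66 FPKM. Its general hepatocyte sum did not stand apart, at 31947 against 28481 and 32168 FPKM. The macrophage sum was 328 against 335 and 347 FPKM, and the endothelial sum 69.5 against 69.2 and 68.3 FPKM. *Klf15* was at 63.9 FPKM in control mouse 2 and at 35.6 and 36.3 FPKM in the others. It was named for its correlation with *Tat* over these same mice, so its value here is not separate from that of *Tat*. Whether these values and the levels of the 10 genes share a source was not tested.

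**Figure D4:**
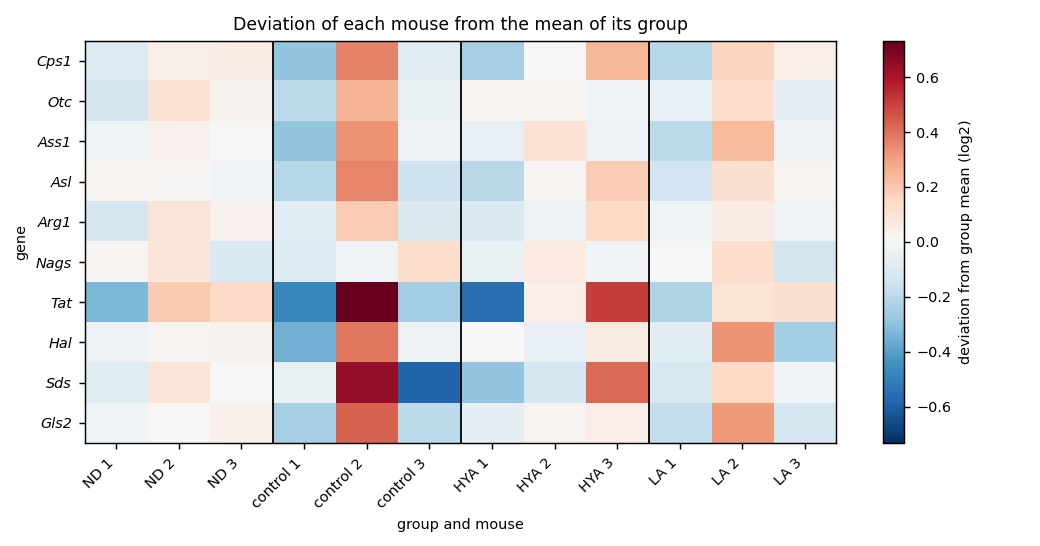
Deviation of each mouse (columns, 3 per diet group) from the mean of its group on the log2(FPKM + 1) scale (colour, red above and blue below) for the 10 genes (rows). The column of control mouse 2 is red for every gene except *Nags*, and the rows of *Tat* and *Sds* hold the deepest colours.

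*Tat* and *Sds* spread most within groups, with pooled SDs of 0.45 and 0.37 on the log2 scale, which lie at the 97.1 and 95.6 percentiles of all tested genes. *Nags* and *Arg1* spread least, with SDs of 0.11 and 0.12 at the 46.7 and 55.6 percentiles. The *Tat* level ranged from 254 to 531 FPKM among HYA-treated mice and from 260.0 to 603 FPKM among control mice. Over the 12 mice, after the mean of each group was taken away, 44 of the 45 pairs of the 10 genes had a positive correlation, with a median of 0.74, the highest being *Cps1* with *Tat* at 0.96 and the lowest *Nags* with *Sds* at -0.18. The points of such a pair share their library, its depth and the diets, and the values are given as a description. Pairs of other tested genes were not taken as a comparison, so the values do not set the 10 genes apart.

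The genes with the most similar levels over the 12 mice were found by Pearson's r on the log2(FPKM + 1) values of all tested genes outside the 10, diet differences included. *Klf15* came first for *Tat* (0.95), ahead of *Ppp1r9a* (0.93). *Paics* and *Alas2* led for *Cps1* (0.99 each), *Mdh1*, of the malate shuttle, and *Hibadh*, of valine breakdown, for *Otc* (0.99 each), *Serpina1a* and *Rdh16f2* for *Hal* (0.99 each), and *Akr1c12* (0.99) and *Mfsd4b1* (0.98) for *Asl*. *Ass1* was nearest to *Impa1* (0.97) and *Hpd* (0.96), *Arg1* to *Aasdh* (0.97) and *Iyd* (0.96), and *Gls2* to *Tmem63a* and *Atp5l* (0.96 each). *Nags* stood with *Txndc5* and *Sec63*, of protein folding and transport in the endoplasmic reticulum (0.97 each), and *Sds* with *Zfyve9* (0.94) and *Map2k3* (0.93).

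Libraries held 17169064 to 25220880 fragments on genes, and *Nags*, the lowest of the 10 genes, still had at least 1192 fragments in each mouse. Within groups libraries correlated across tested genes at 0.983 or above. The labels tell the mice of a group apart only by number, and p-values measure the spread between these libraries.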

How the data were processed

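Livers of 12 mice, 3 in each of 4 diet groups, were analysed from 1 table. Per the processing notes of the submitters, the authors trimmed paired reads with fastp, aligned them to GRCm38 with HISAT2 2.0.5 and counted them with featureCounts 1.5.0-p3, and they deposited FPKM values with the gene length beside them. The methods name TPM, but the deposited columns sum to different totals and each FPKM times gene length is a whole multiple of 1 step per library, from which fragments were recovered. The totals differed by diet, at 407652 to 429286 in ND-fed and 380803 to 393109 in HYA-treated mice. They were 342146 to 368132 in control and 352290 to 361523 in LA-treated mice. The strand setting and the scaling are not given in the sources used here. ND mouse 3 and control mouse 1 had 19595277 and 19558364 fragments on genes. Yet 3 fragments on a gene of 2 kb gave 0.0835 and 0.0698 FPKM, so the scaling did not follow that total alone. Median-ratio rescaling changed the calls of control against ND little, from 1795 higher and 2115 lower to 1784 and 2125. The main test was limma 3.58.1 in R 4.3.3 on log2(FPKM + 1), with all 12 mice in 1 fit, an intensity trend, the 11083 genes whose mean reached 1 FPKM, and Benjamini-Hochberg adjustment over all of them. Intervals are 95% limits and not adjusted. No replicate numbers were used as pairs, since the labels give numbers only. Alternatives were an offset of 0.1, no filter, a minimum mean of 10 fragments, median-ratio and TPM rescaling, voom on the recovered fragments, fits of only the 2 groups compared, a replicate block, an added absolute log2 fold change above 1, and each mouse left out in turn. All 10 members were named, with the genes of the lists by their fixed examples and the 2 nearest genes per member. The members and lists were chosen with earlier results of these data known.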

Additional observations from a re-analysis of the deposited data

Results flagged for a closer look

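*Ppm1k* drew attention because its responses to HYA and to LA, each set against the same control mice, differed in a direct test of HYA-treated against LA-treated mice, with a log2 difference of 0.76 and a limma adjusted p of 0.0411. The call was lost in the fits without ND mouse 1 or 2, control mouse 3 or any single HYA-treated or LA-treated mouse, with adjusted p up to 0.229.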

How the results depend on the processing

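Of the 10 genes, the 6 that fell in control against ND passed in every fit at the same threshold, and no call of any of the 10 reversed sign. Adding an absolute log2 fold change above 1 left 2 of them in control against ND, 2 in HYA against ND and 2 in LA against ND, and 6 of the other amino acid genes in control against ND, with 0 in HYA against control and 0 in HYA against LA. HYA against control gave 1 member, *Hal*, with the minimum of 10 fragments (adjusted p = 0.0494) and with voom (0.0345). HYA against ND gave 2 members without the filter, 2 with TPM, 2 with voom and 7 in the fit of those 2 groups. For the other genes, HYA against control gave 0 without the filter and 0 in the fit of 2 groups, and HYA against LA gave 0 without the filter, 2 with TPM, 7 with voom and 5 in the fit of 2 groups. The cause was not tested.

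Leaving out 1 mouse at a time gave 6 to 9 members in control against ND, 0 to 4 in HYA against control, 0 to 0 in LA against control, 0 to 1 in HYA against LA, 2 to 6 in HYA against ND and 6 to 9 in LA against ND. For the other genes it gave 47 to 64, 0 to 36, 0 to 0 and 0 to 13 in the first 4 comparisons, with the 64, 36 and 13 reached without control mouse 2. In that fit 32.4%, 5.87% and 2.34% of all tested genes passed in control against ND, HYA against control and HYA against LA.

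The labels do not say whether mice of the same number belong together. Correlations of the deviations of same-numbered mice over all tested genes ran from -0.40 to 0.29. With 3 mice a group these values cannot settle a pairing, and mice of different numbers were not compared. With a replicate block HYA against control gave 1 member (*Hal*, adjusted p = 0.038) and 23 other genes, and HYA against LA gave 1 member (*Ass1*, 0.0476) and 14 other genes. Under the block 4.05% and 2.33% of all tested genes passed in these comparisons, against 2.8% and 0.487% without it. *Tat* (0.0317) and *Gls2* (0.0252) passed in control against ND under the block. *Ass1* (0.0371) and *Asl* (0.0429) passed in HYA against ND, and the block changed no other call of the 10 genes. With 3 mice a group and at least 1192 fragments per member gene, the spread between mice limits the precision.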
